A study of Mus musculus with 12 samples.

Results

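The 10 genes described here encode the D-type cyclins (Ccnd1, Ccnd2, Ccnd3), their kinase partners (Cdk4, Cdk6) and inhibitors of cyclin-dependent kinases (Cdkn1b, Cdkn1c, Cdkn2a, Cdkn2c, Cdkn2d). They were taken by symbol from deposited gene tables of 24883 entries, and all 10 were found at 1 locus each. The tables hold RNA-seq of GFP-positive acute myeloid leukaemia (AML) cells. The cells were taken from marrow of MLL-AF9 transgenic mice by sorting on GFP, with 1 library per mouse. MLL-AF9 is a fusion oncoprotein of human acute leukaemia, and every group carries it. The vehicle group (n = 5) received vehicle alone. The other mice received induction chemotherapy with doxorubicin, a topoisomerase poison, and cytarabine, a nucleoside analogue, and were sampled at 3 days (iCT, n = 3; the labels do not say from which point these days count) or 10 days after it was completed (relapse, n = 4). The sources used here do not give mouse age, doses or the way the leukaemia was established. In bulk libraries such as these, fewer cells of a type and less RNA per cell cannot be told apart.

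D-type cyclins bind CDK4 and CDK6 and carry growth signals into the cell cycle: the complexes phosphorylate the retinoblastoma protein, which then releases E2F transcription factors to switch on genes of DNA synthesis. The INK4 inhibitors (Cdkn2a, Cdkn2b, Cdkn2c, Cdkn2d) bind CDK4 and CDK6 themselves, whereas the CIP/KIP inhibitors (Cdkn1a for p21, Cdkn1b for p27, Cdkn1c for p57) act on whole cyclin-kinase complexes, above all those of CDK2. In leukaemia driven by MLL fusions, CDK6 is known as a kinase the cells depend on.

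Values are FPKM (fragments per kilobase of transcript, scaled to the mapped fragments of the library), so levels of different genes can be set side by side. Differences are in log2(FPKM + 1), a scale that makes the change of low genes look smaller than it is, with adjusted p from limma over 11019 genes and a threshold of 0.05. The confidence intervals in the tables implied 361914 fragments for the shallowest library, iCT mouse 1, and 1225254 to 8359793 for the others. All 10 genes of myeloid progenitors and MLL-AF9 leukaemia that were looked up, among them Hoxa9, Meis1 and Ptprc, were tested, and none lay under 1 FPKM throughout any group (0 genes). Of these, 2 were lower in iCT than in vehicle with no overlap: the stem cell factor receptor gene Kit (25.8 ± 1.21 to 6.84 ± 1.65 FPKM, log2 difference -1.79, adjusted p = 8.67e-05) and the progenitor marker Cd34 (89.7 ± 18.8 to 26.9 ± 4.09, -1.69, adjusted p = 0.00017). In relapse Kit had 31.6 ± 5.64 FPKM and Cd34 129 ± 16.9. The part of this shift in the results below was not tested.

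Day 3 and day 10 stand below for iCT and relapse, and their days may not count from the same point. At day 3 the transcripts of all 3 D cyclins rose and that of p27 fell, while Cdk4, Cdk6 and the INK4 genes did not pass the test. At day 10 the difference from vehicle passed for 0 of the 10, and for 0% of all genes tested. In iCT against vehicle 3 of the 10 genes were higher and 1 lower (Ccnd1, Ccnd2, Ccnd3; Cdkn1b), and these 4 were also the genes whose groups did not overlap. Over all genes tested 9.62% passed (3.31% higher and 6.31% lower), the unadjusted p was under 0.05 in 29.8% (4 of the 10 genes), and groups were apart without overlap in 16.1% (5.49% higher and 10.6% lower). The median log2 difference was -0.01 over the 10 genes and -0.085 over all genes tested. Of the genes that passed, 365 were higher and 695 lower as deposited, 496 and 615 after median-of-ratios scaling and 526 and 570 after quantile normalization, and the signs of the 4 called differences held under both. All 10 passed the filter on low values (at least 1 FPKM in 3 libraries), but Ccnd1 was under 1 FPKM in every vehicle mouse and passed only through 3 iCT and 3 relapse mice.

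**Figure D1:**
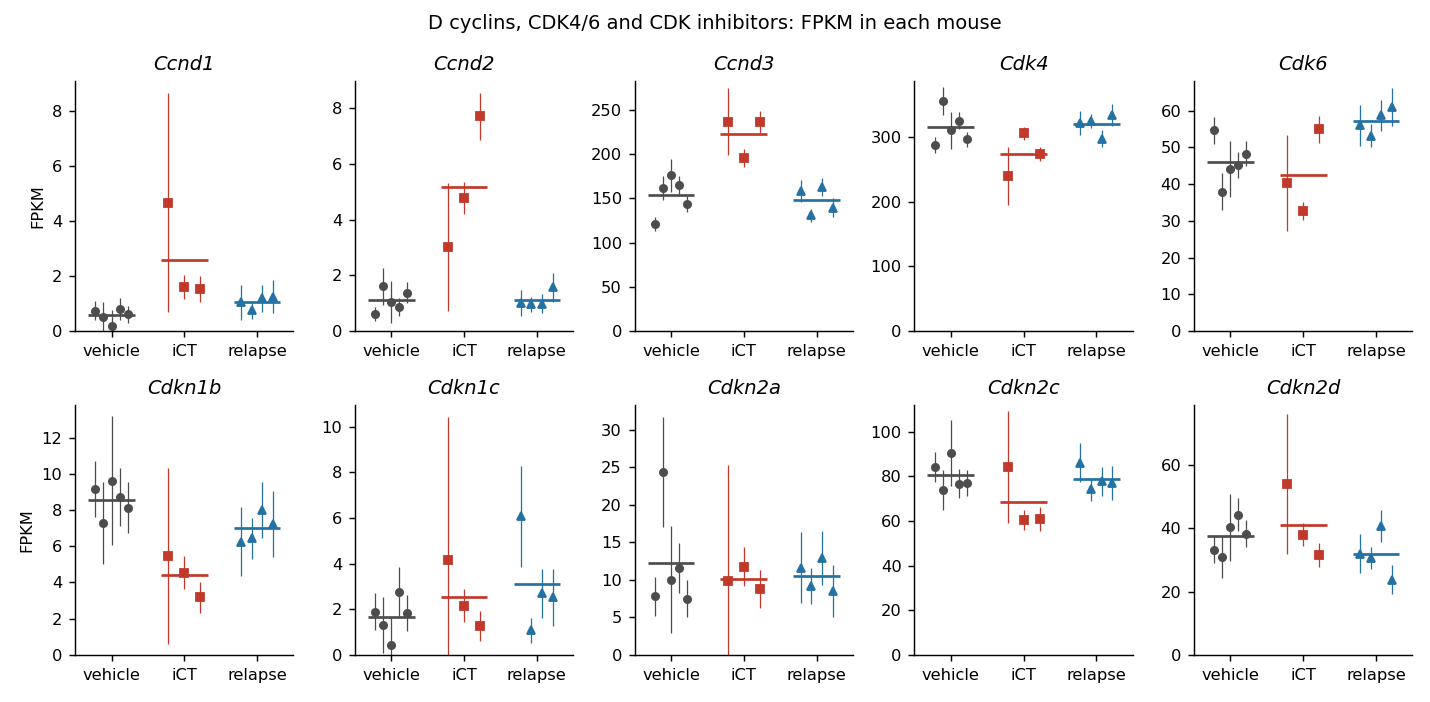
FPKM of each gene in each mouse (y axis, linear from 0) for vehicle (circles), iCT (squares) and relapse (triangles), mice in numerical order; vertical lines are the deposited 95% intervals and horizontal lines the group means. Every iCT mouse lies above every vehicle mouse for Ccnd1, Ccnd2 and Ccnd3 and below for Cdkn1b, and the intervals of iCT mouse 1 are the widest.

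In untreated leukaemia the family spanned a wide range of levels. Cdk4 was the most abundant (315 ± 26.8 FPKM, SD, n = 5), followed by Ccnd3 (153 ± 21.4), the p18 gene Cdkn2c (80.4 ± 6.80), Cdk6 (46.1 ± 6.09) and the p19 gene Cdkn2d (37.5 ± 5.33). Much lower were Cdkn2a (12.3 ± 6.99 FPKM) and Cdkn1b (8.58 ± 0.909), and at the bottom Cdkn1c (1.65 ± 0.859), Ccnd2 (1.10 ± 0.400) and Ccnd1 (0.579 ± 0.239). Neighbours in this order whose vehicle values overlapped were Cdk6 and Cdkn2d, Cdkn2a and Cdkn1b, Cdkn1c and Ccnd2, and Ccnd2 and Ccnd1. Ccnd3 made up 98.9% ± 0.264 of the summed D cyclin FPKM, and Cdk4 87.1% ± 2.34 of Cdk4 and Cdk6 together.

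Ccnd3, the dominant D cyclin, lies on chromosome 17 (47505051 to 47599688, plus strand, GRCm38). Its FPKM was 121, 161, 176, 165 and 144 in vehicle mice 1 to 5, 237, 196 and 236 in iCT mice 1 to 3, and 158, 131, 162 and 139 in relapse mice 1 to 4. The 3 iCT mice were above all other mice, and the vehicle and relapse ranges overlapped. Ccnd3 rose from 153 ± 21.4 to 223 ± 23.5 FPKM at day 3, a log2 difference of 0.54 (SE 0.13, adjusted p = 0.023). At day 10 it stood at 148 ± 15.2 FPKM, lower than at day 3 by a log2 difference of -0.59 (adjusted p = 0.019). The difference of relapse from vehicle was -0.05 (95% interval -0.30 to 0.21). The day 3 call was lost without vehicle mouse 5 (adjusted p = 0.0537), iCT mouse 1 (0.0662) or iCT mouse 3 (0.0538), and in the fit of those 2 groups alone (0.0677) or with array weights (0.0646), with log2 differences from 0.46 to 0.63 over 23 alternatives. The day 10 call was lost without relapse mouse 2 (adjusted p = 0.0558) or 4 (0.0532) and in the fit of iCT and relapse alone (0.0506).

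The locus of Ccnd3 overlaps Bysl, a ribosome biogenesis gene on the opposite strand, with 361 exon bases in common in GENCODE M21, and a processed pseudogene, Ccnd3-ps, is annotated elsewhere. The sources used here do not state strandedness, so reads of the shared stretch cannot be told apart. Bysl had 31.3 ± 4.64 FPKM in vehicle and 39.7 ± 4.68 in iCT, a log2 difference of 0.34 (adjusted p = 0.117).

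RefSeq (GRCm38.p6) gives promoter windows for 7 of the 10 genes, and those of the 2 called genes among them and of Cdk4, the most abundant gene of the family, are shown as the 250 bases before each annotated start. Capitals mark matches, on either strand, to the E-box CACGTG, which MYC and its partner MAX can bind, the CCAAT box (CCAAT) and 3 E2F-like words (TTCCCGC, then TTGGCGC and also TTCGCGC). A match is a description of letters, not a bound site. Ccnd3 has 2 annotated starts, at chr17:47504801-47505050 and chr17:47593217-47593466, both on the plus strand, and the tables do not say which was used.
Ccnd3, upstream start: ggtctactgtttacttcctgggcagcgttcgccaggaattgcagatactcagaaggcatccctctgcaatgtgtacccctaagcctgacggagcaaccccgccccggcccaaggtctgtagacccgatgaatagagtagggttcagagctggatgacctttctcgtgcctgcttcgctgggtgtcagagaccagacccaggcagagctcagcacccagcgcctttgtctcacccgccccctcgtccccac
Ccnd3, downstream start: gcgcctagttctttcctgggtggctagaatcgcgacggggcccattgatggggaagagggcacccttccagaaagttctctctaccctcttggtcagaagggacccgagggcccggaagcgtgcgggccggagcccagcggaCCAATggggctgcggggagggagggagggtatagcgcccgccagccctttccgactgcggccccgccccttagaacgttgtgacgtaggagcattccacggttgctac
Cdkn1b, chr6:134920151-134920400, plus strand: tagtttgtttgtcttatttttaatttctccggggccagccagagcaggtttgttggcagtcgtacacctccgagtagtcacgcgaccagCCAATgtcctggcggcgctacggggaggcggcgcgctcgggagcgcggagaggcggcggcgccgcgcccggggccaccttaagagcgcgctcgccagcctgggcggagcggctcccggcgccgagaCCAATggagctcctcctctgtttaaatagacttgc
Cdk4, chr10:127063285-127063534, plus strand: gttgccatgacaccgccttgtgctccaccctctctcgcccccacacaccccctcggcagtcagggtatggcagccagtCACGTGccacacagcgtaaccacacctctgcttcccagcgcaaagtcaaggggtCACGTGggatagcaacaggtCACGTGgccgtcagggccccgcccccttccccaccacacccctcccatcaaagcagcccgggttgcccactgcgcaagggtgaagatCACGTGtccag
The Cdk4 window held 4 E-boxes. Among all 32851 promoter windows of this length 6% held at least 1 and 7 windows (0.0213%) held 4 or more. The Cdkn1b window held 2 CCAAT boxes and the downstream Ccnd3 window held 1, a word present in 33.8% of windows. None of these 4 windows held an E2F-like word, against 6.7% of all windows, whereas 1 window each of Cdkn2a and Cdkn2c did. The matches do not overlap one another. Windows of Cdk6 (1 E-box) and Cdkn2d (1 CCAAT box) also matched.

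Ccnd2 lies on chromosome 6 (127125709 to 127151048, minus strand) and encodes a D cyclin known to respond to cytokines in blood cells. It had 0.605, 1.61, 1.05, 0.875 and 1.39 FPKM in vehicle mice 1 to 5, 3.02, 4.79 and 7.72 in iCT mice 1 to 3, and 1.01, 0.961, 0.978 and 1.58 in relapse mice 1 to 4. All iCT mice were above all others, and vehicle and relapse overlapped. Ccnd2 rose at day 3 from 1.10 ± 0.400 to 5.18 ± 2.37 FPKM (log2 difference 1.502, SE 0.25, adjusted p = 0.00446). From day 3 to day 10 it fell to 1.13 ± 0.299 FPKM (log2 difference -1.47, SE 0.26, adjusted p = 0.00698). Both calls held in each of the 22 alternatives in which Ccnd2 was tested. Relapse differed from vehicle by 0.03 (95% interval -0.47 to 0.53). The value of iCT mouse 1 rested on 7 implied fragments, against 271 and 335 in iCT mice 2 and 3.

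Ccnd1, on chromosome 7 (144929931 to 144939925, minus strand), is the D cyclin best known from epithelial and other solid tissues. It had 0.742, 0.519, 0.203, 0.814 and 0.619 FPKM in vehicle mice 1 to 5, 4.68, 1.61 and 1.52 in iCT mice 1 to 3, and 1.04, 0.759, 1.19 and 1.26 in relapse mice 1 to 4. The iCT mice were again highest, but the spread within the group was wide and set by mouse 1. Ccnd1 rose from 0.579 ± 0.239 to 2.60 ± 1.80 FPKM (log2 difference 1.10, SE 0.27, adjusted p = 0.0251). The value of 4.68 rested on 5.52 implied fragments, with a deposited interval of 0.695 to 8.67 FPKM, and without that mouse the difference was 0.71 (adjusted p = 0.058). Its call was also lost without vehicle mouse 3 (adjusted p = 0.0542) or 5 (0.051), with array weights (0.094) and in the fit of the 2 groups alone (0.0851), and with a pseudocount of 0.1 the difference was 1.90. Relapse, at 1.06 ± 0.221 FPKM, did not differ from vehicle (0.39, 95% interval -0.14 to 0.92) or from iCT (-0.70, adjusted p = 0.123) by the test. In GENCODE M21, 1100 exon bases of Ccnd1 are shared with LTO1 on the opposite strand. Opposite-strand genes also share exon bases with Cdk4 (641, Tspan31), Cdkn1c (625, Gm44732), Ccnd2 (368 and 372) and Cdk6 (368, Gm17590). Reads of these stretches cannot be told apart either.

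Together, Ccnd1 and Ccnd2 remained minor transcripts at day 3. Ccnd2 was 0.709% ± 0.239 of the summed D cyclin FPKM in vehicle, 2.25% ± 0.960 in iCT and 0.765% ± 0.236 in relapse. For Ccnd1 the shares were 0.390% ± 0.186, 1.11% ± 0.703 and 0.708% ± 0.132, and without iCT mouse 1 (1.92%) the iCT share was 0.707%, with iCT mice 2 and 3 (0.795% and 0.620%) inside the relapse range of 0.573% to 0.883%. Ccnd3 still held 96.6% ± 0.351 in iCT, with no iCT mouse above 96.8% and no vehicle mouse under 98.6%. The summed D cyclin FPKM was 155 ± 21.5 in vehicle, 231 ± 24.7 in iCT and 150 ± 15.2 in relapse, and most of this difference in FPKM came from Ccnd3.

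**Figure D2:**
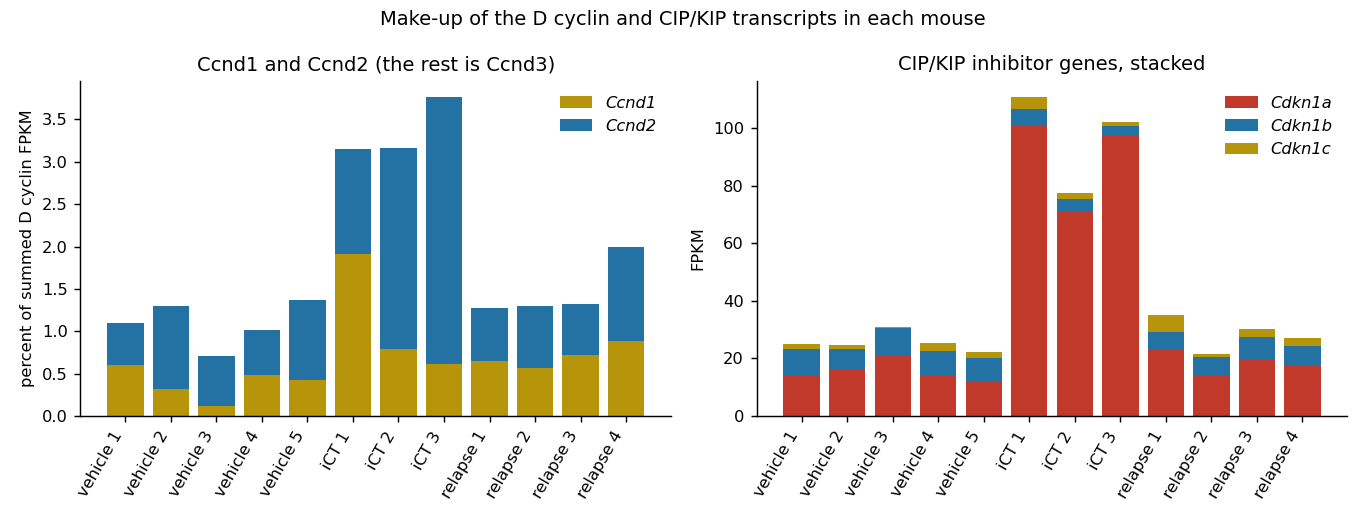
Left, stacked shares of Ccnd1 and Ccnd2 in the summed FPKM of the 3 D cyclins (percent, y axis) in each mouse; right, FPKM of Cdkn1a, Cdkn1b and Cdkn1c stacked in each mouse. The Ccnd2 share averages 2.25% in iCT against 0.709% in vehicle, and in iCT the stack is nearly all Cdkn1a (92.8%).

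Markers of other marrow cells moved with the same groups. Of 8 osteoclast markers 6 were tested and 6 rose in iCT, and of 11 macrophage markers 7 were tested and 6 rose. In each list 3 of the tested markers (Atp6v0d2, Dcstamp and Ocstamp; Axl, Fcna and Mrc1) reached the filter only with the iCT libraries, so a higher value there was fixed by the filter. Of the rest, 3 of 3 osteoclast (Ctsk, Acp5 and Mmp9) and 3 of 4 macrophage markers (C1qa, C1qb and C1qc) rose. The lists were chosen with earlier results of these data known, so these counts are a description only. The summed osteoclast markers were 22.8 to 75.6 FPKM in vehicle, 259 to 990 in iCT and 43.2 to 165 in relapse, and Calcr, Dcstamp and Oscar were at 0 in every vehicle mouse. The summed macrophage markers were 62.8 to 102 FPKM in vehicle, 121 to 256 in iCT and 40.3 to 52.6 in relapse, with Timd4 at 0 in every relapse mouse and under 1 FPKM in all libraries. Ccnd1 was highest in iCT mouse 1, which had the highest osteoclast sum (990 FPKM) and the lowest macrophage sum of its group (121). Ccnd2 followed the macrophage sum within iCT (121, 160 and 256 FPKM in mice 1 to 3). Other sums had the same order in these 3 mice. They were those of megakaryocyte (9.94, 11.3 and 26.5 FPKM), stromal and endothelial (107, 116 and 119) and B cell markers (30.8, 31.6 and 33.7). The Ccnd2 value of iCT mouse 1 rested on 7 implied fragments. Over the 5 vehicle mice the mouse with the highest macrophage sum (102) had the lowest Ccnd2. Most of the vehicle sum was Vcam1 (63.6 ± 19.6 FPKM). Vcam1 was the tested macrophage marker that did not rise in iCT (46.3 ± 1.12, log2 difference -0.40, adjusted p = 0.1905). The part of these cells in the Ccnd1 and Ccnd2 results was not tested. The 10 neutrophil markers summed to 3816 to 14541 FPKM in vehicle, 14305 to 18661 in iCT and 6533 to 15381 in relapse, with 2 of 10 higher in iCT. Lcn2 rose from 380 ± 177 to 1193 ± 225 FPKM (log2 difference 1.75, adjusted p = 0.00998). Cxcr2 rose from 4.355 ± 2.06 to 10.98 ± 4.23 (1.19, adjusted p = 0.0458). S100a8 and S100a9, the largest in iCT (7529 ± 1501 and 5504 ± 1003 FPKM), did not pass (adjusted p = 0.0767 and 0.071). Of the 10, 7 had a positive log2 difference, while Retnlg had 118 ± 62.7 FPKM in vehicle and 23.2 ± 20.7 in iCT. Summed erythroid markers were 10.6 to 311 FPKM in vehicle, 2.97 to 13.5 in iCT and 32.6 to 122 in relapse, and summed megakaryocyte markers 1.80 to 7.46, 9.94 to 26.5 and 2.31 to 5.01. Under 1 FPKM in every library were 4 of 8 B cell markers, 4 of 8 T and NK cell markers and 3 of 10 stromal and endothelial markers (Cdh5, Emcn and Kdr). The highest values of the others included 39.7 FPKM for Cd79b, 13.9 for Jchain, 1.41 for Cd3g and 20.5 for Pecam1. In iCT, Cd79b fell from 27.4 ± 7.29 to 16.65 ± 0.293 FPKM (adjusted p = 0.0433). The other B cell markers tested, Jchain and Cd79a, had higher means in iCT and did not pass. Jchain had 5.06 ± 4.02 FPKM in vehicle and 12.6 ± 2.16 in iCT (log2 difference 1.54, adjusted p = 0.121). Cd79a had 1.49 ± 1.16 and 2.25 ± 2.18 (0.19, adjusted p = 0.83). Both Hba-a1 entries fell in iCT (log2 differences -3.31 and -3.91, adjusted p = 0.0272 and 0.0207). Pf4 had 0.807 ± 0.898 FPKM in vehicle and 11.7 ± 8.70 in iCT. Igfbp4, in the stromal list, rose from 51.8 ± 13.2 to 99.0 ± 10.9 FPKM in iCT (adjusted p = 0.0141), and Pecam1 fell from 11.1 ± 1.56 to 6.04 ± 2.16 (adjusted p = 0.0454). The part of any of these cells in the Ccnd3 and Cdkn1b results was not tested either.

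**Figure D3:**
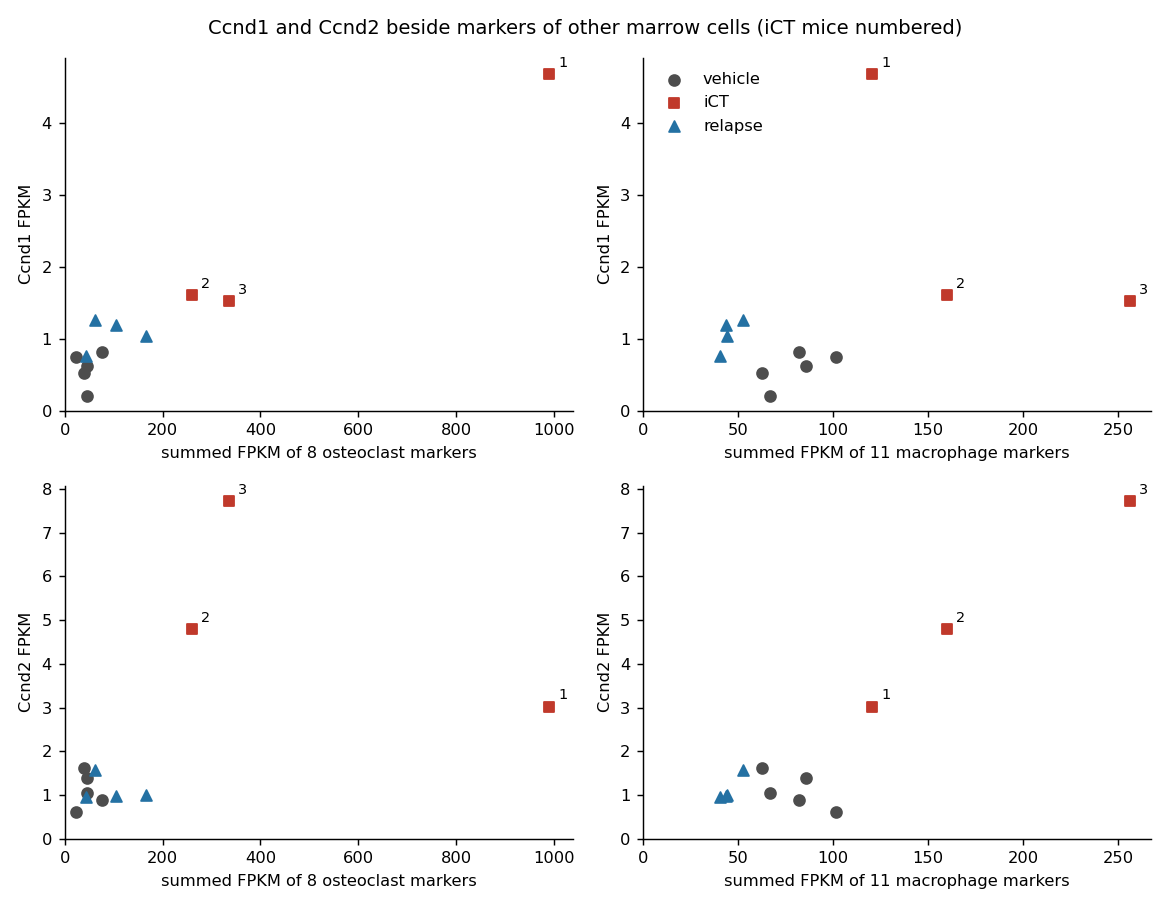
FPKM of Ccnd1 (top) and Ccnd2 (bottom) in each mouse against the summed FPKM of osteoclast markers (left) and macrophage markers (right), with iCT mice numbered. The 3 iCT mice lie apart from the other 9 on both axes of all panels, and their order differs between panels.

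Neither kinase gene passed the test in any of the 3 comparisons. Cdk4 (chromosome 10, 127063603 to 127067282, plus strand) had 287 to 355 FPKM in vehicle (median 310), 240, 306 and 273 in iCT mice 1 to 3 and 297 to 334 in relapse, with overlapping groups. Its log2 difference was -0.21 (95% interval -0.42 to 0.00, adjusted p = 0.174) in iCT and 0.02 (-0.17 to 0.22) in relapse. The day 3 difference passed in 1 of 23 alternatives, without iCT mouse 2 (-0.29, adjusted p = 0.0497). Cdk6 (chromosome 5, 3344312 to 3522225, plus strand) had 38 to 54.7 FPKM in vehicle, 40.3, 32.8 and 54.9 in iCT mice 1 to 3, and 53.2 to 61 in relapse. The iCT mice spanned more than the vehicle range, and 3 of the 4 relapse mice lay above it, with mouse 2 (53.2) inside. Cdk6 differed by -0.13 (95% interval -0.46 to 0.20) in iCT and by 0.31 (0.01 to 0.62) in relapse, neither passing after adjustment (0.585 and 0.331). Between relapse and iCT the difference was 0.45 (adjusted p = 0.096). It passed in 1 of 23 alternatives, without iCT mouse 3 (0.64, adjusted p = 0.0165). Ccnd3 per Cdk4 (FPKM ratio) was 0.488 ± 0.0556 in vehicle, 0.831 ± 0.176 in iCT and 0.465 ± 0.0669 in relapse, with iCT mice at 0.641 to 0.988 and vehicle mice at 0.422 to 0.569.

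Cdkn1b encodes p27, which holds CDK2 complexes inactive in resting cells, and lies on chromosome 6 (134920401 to 134925525, plus strand). It had 9.17, 7.29, 9.62, 8.70 and 8.14 FPKM in vehicle mice 1 to 5, 5.46, 4.54 and 3.18 in iCT mice 1 to 3, and 6.25, 6.43, 8.02 and 7.23 in relapse mice 1 to 4. Every iCT mouse was below every other mouse, and relapse overlapped the lower end of vehicle. Cdkn1b fell from 8.58 ± 0.909 to 4.39 ± 1.15 FPKM at day 3 (log2 difference -0.85, SE 0.17, adjusted p = 0.00956), a call that held without each of the 12 libraries in turn. At day 10 it was 6.98 ± 0.810 FPKM. The difference from iCT was 0.58 (SE 0.17) with adjusted p = 0.0513, just outside the threshold. It passed in 4 of 23 alternatives: without iCT mouse 1 (0.0239), with array weights (0.0225), with precision weights (0.0212) and with no variance trend (0.0412). Over the 23 alternatives the adjusted p reached 0.238. The difference of relapse from vehicle was -0.26 (95% interval -0.59 to 0.06). The iCT values rested on 5, 104 and 53.9 implied fragments.

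The other CIP/KIP gene in the set, Cdkn1c (chromosome 7, 143458339 to 143461050, minus strand), encodes p57, an imprinted inhibitor known from quiescent stem cells. It had 0.429 to 2.77 FPKM in vehicle, 1.27 to 4.15 in iCT and 1.09 to 6.07 in relapse. The groups overlapped in part, with iCT mouse 1 (4.15) and relapse mouse 1 (6.07) above all vehicle mice and vehicle mouse 3 (0.429) below all treated mice, and the log2 differences of 0.40 (95% interval -0.47 to 1.27) and 0.56 (-0.24 to 1.36) from vehicle did not pass. Its values rested on as few as 0.482 implied fragments (vehicle mouse 3) and at most 35.1. Relapse mice 1 and 2 differed beyond their deposited intervals (3.86 to 8.27 and 0.537 to 1.63 FPKM).

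Cdkn1a, the p21 gene and a p53 target, moved the other way from Cdkn1b. It had 12.1 to 21 FPKM in vehicle, 101, 70.7 and 97.7 in iCT mice 1 to 3 and 14.1 to 22.9 in relapse, with a log2 difference of 2.48 at day 3 (adjusted p = 4.89e-05) and of -2.23 from day 3 to day 10 (adjusted p = 0.000139). The ratio of Cdkn1a to Cdkn1b FPKM was 1.80 ± 0.357 in vehicle, 21.6 ± 8.06 in iCT and 2.66 ± 0.675 in relapse. The lowest iCT mouse stood at 15.6 and the highest of any other mouse at 3.66. Cdkn1b made up 33.7% ± 3.25 of the CIP/KIP transcripts in vehicle, 4.63% ± 1.40 in iCT and 25.2% ± 5.21 in relapse.

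Among the INK4 genes, Cdkn2c (chromosome 4, 109660876 to 109666756, minus strand) was the main one in every mouse, at 61.6% ± 4.17 of the summed INK4 FPKM in vehicle. It had 73.8 to 90.5 FPKM in vehicle (median 76.9), 84.1, 60.3 and 60.9 in iCT mice 1 to 3, and 74.1 to 86.1 in relapse. iCT mouse 1 lay within the vehicle range and the other two iCT mice below it. The log2 difference at day 3 was -0.24 (95% interval -0.50 to 0.02, adjusted p = 0.192). Without iCT mouse 1, the 1 of 23 alternatives in which it passed, it was -0.40 (adjusted p = 0.0382). In relapse it was -0.03 (-0.27 to 0.21).

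Cdkn2d (chromosome 9, 21288464 to 21291209, minus strand) had 31.1 to 44.2 FPKM in vehicle, 54, 38 and 31.6 in iCT mice 1 to 3, and 23.8 to 40.7 in relapse. The groups overlapped, and the log2 difference of 0.11 at day 3 (95% interval -0.31 to 0.53) was -0.10 without iCT mouse 1. Cdkn2a (chromosome 4, 89274473 to 89294619, minus strand) encodes p16 and, from another first exon, p19ARF, which stabilises p53, and the gene-level FPKM does not separate them. It had 7.80, 24.4, 10, 11.6 and 7.49 FPKM in vehicle mice 1 to 5, 8.75 to 11.8 in iCT and 8.51 to 12.9 in relapse. Vehicle mouse 2 stood apart, and the log2 differences of -0.13 and -0.09 in iCT and relapse became 0.13 and 0.18 without it. Cdkn2b, the p15 gene, was not tested: it was under 1 FPKM in all but 1 library (vehicle mouse 1, 1.18), and in 4 libraries it was listed at 0. Summed INK4 FPKM was 131 ± 6.93 in vehicle, 120 ± 24.8 in iCT and 121 ± 11.2 in relapse.

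**Figure D4:**
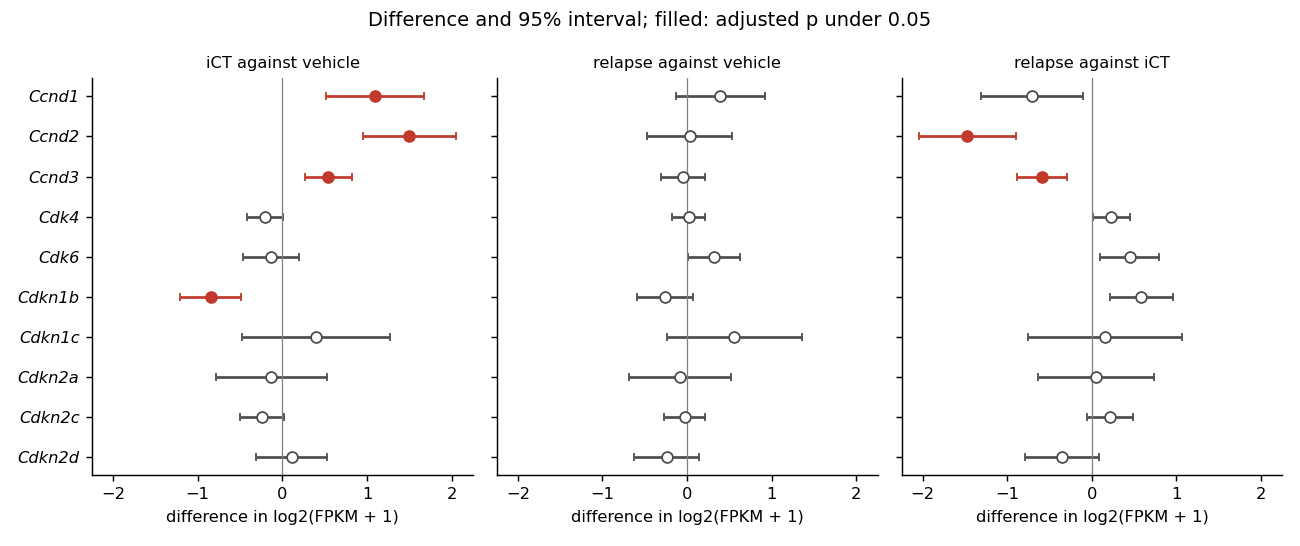
Difference in log2(FPKM + 1) between groups (x axis) for each gene, with its 95% interval, in the 3 comparisons; filled red points passed an adjusted p of 0.05. In iCT against vehicle 4 of 10 genes passed, in relapse against vehicle 0 and in relapse against iCT 2.

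In relapse against vehicle 0 of the 10 genes passed by limma, 1 had an unadjusted p under 0.05 (Cdk6) and 0 had groups that did not overlap. Over all genes 0% passed (0 genes), 14.6% had an unadjusted p under 0.05 and 13.7% did not overlap (9.72% higher and 4.03% lower). Other fits called 1 gene with no filter, 10 with precision weights, 612 in the fit of those 2 groups alone and 971 with array weights, and 0 of the 10 in each. In relapse against iCT, which shares its iCT libraries with the day 3 comparison, 0 of the 10 were higher and 2 lower (Ccnd2 and Ccnd3), where 9.72% of all genes passed (6.62% higher, 3.1% lower). The split was 729 higher and 342 lower as deposited, 490 and 514 after median-of-ratios scaling and 431 and 420 after quantile normalization, and these scalings moved the median of all genes from 0.16 to 0.06 and 0.02. The groups did not overlap for Ccnd1, Ccnd2 and Ccnd3 (lower) and Cdkn1b (higher), or 4 of 10 genes, against 23.3% of all genes (16.9% higher and 6.33% lower). An unadjusted p under 0.05 was found for 6 of the 10 genes (Ccnd1, Ccnd2, Ccnd3, Cdk4, Cdk6 and Cdkn1b) and for 29% of all genes. The median log2 difference was 0.10 over the 10 genes and 0.16 over all genes.

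Apart from Cdkn1a, described above, other genes of the pathway were called at day 3 in shares of 3.4% to 11.8% per list, where 9.62% of all genes passed. Of 17 tested genes of the RB family, E2F factors and the DREAM complex, 1 rose and 1 fell at day 3 (11.8%, median -0.05, against -0.085 for all genes). E2f4, a repressive E2F, rose from 32.3 ± 6.98 to 50.3 ± 11.6 FPKM (log2 difference 0.63, adjusted p = 0.0454), and Lin52, a DREAM subunit, fell from 5.78 ± 0.633 to 3.56 ± 0.148 (-0.57, adjusted p = 0.0465). Of 15 tested genes of CDK2, its cyclins, the CDK-activating kinase and mitotic kinases and phosphatases, 0 rose and 1 fell, the phosphatase gene Cdc25b (-1.38). Of 29 E2F-driven genes of S phase 1 rose, the ribonucleotide reductase gene Rrm2 (0.51), and 0 fell (median -0.02). Of 21 genes for turnover and folding of D cyclins, CDK4/6 and p27, 1 rose, the deubiquitinase gene Usp10 (0.46, adjusted p = 0.033), and 0 fell.

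Of 27 tested upstream regulators 1 rose and 2 fell at day 3 (11.1%, near the 9.62% of all genes). Akt1, a kinase known to restrain p27, rose from 106 ± 8.38 to 140 ± 15.1 FPKM (log2 difference 0.39, adjusted p = 0.0393). Cebpa, a myeloid factor that slows the cell cycle, fell from 53.8 ± 6.23 to 27.8 ± 7.23 FPKM (-0.95, adjusted p = 0.00648), and Stat5b, a cytokine signal transducer, from 13.7 ± 1.42 to 6.99 ± 3.22 (-0.96, adjusted p = 0.026). From day 3 to day 10, 4 of the 27 rose and 1 fell (18.5%, where 9.72% of all genes passed). Cebpa (1.001) and Stat5b (1.31) had the smallest p. The others, named after their values were seen, were Stat5a (0.83), the MYC antagonist Mxd4 (0.91) and the p53 ligase gene Mdm2 (-0.82). In the same comparison E2f2 fell (-0.79), Cdc25b rose (1.48), Rrm2 fell (-0.62) and the polymerase gene Pole rose (0.62), and 0 of the 21 turnover genes passed. In relapse against vehicle 0 genes of these lists passed.

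The genes most like the 4 that differed between groups were sought by the root mean square difference of log2(FPKM + 1) over the 12 libraries, each gene centred on its own mean, among 7837 genes with a mean of at least 5 FPKM. The F test over the 3 groups, which 9.37% of genes passed, chose these 4 (adjusted p = 0.00743 for Ccnd2 to 0.0496 for Ccnd1). For Ccnd3, itself varying by 0.29 around its mean, they were Bop1 (0.12), Rcc1 (0.13) and Tes (0.14). For Cdkn1b (0.38) they were Lims1 (0.12), Cdadc1 (0.15) and Dcun1d1 (0.15), and Lims1 had 26.1 ± 4.49, 14.5 ± 1.13 and 21.8 ± 1.52 FPKM in vehicle, iCT and relapse. For Ccnd2 (0.71) they were Tlr2 (0.29), Igfbp4 (0.36) and Il1r2 (0.36), and Tlr2 had 3.29 ± 0.582, 10.4 ± 7.68 and 3.61 ± 0.677 FPKM. For Ccnd1 (0.53) the nearest were Hist2h2aa1 (0.22), Rbms1 (0.23) and Kctd5 (0.23). Because this scale makes changes of low genes look smaller, likeness to Ccnd1 or Ccnd2 is not likeness in fold change. From vehicle to iCT, Ccnd1 went from 0.579 ± 0.239 to 2.60 ± 1.80 FPKM and Rbms1 from 12.8 ± 0.918 to 23.8 ± 11.6. Hist2h2aa1 has a near-identical copy and is uncertain.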

How the data were processed

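The deposited files are 12 gene tables in Cufflinks format, 1 per library, and hold FPKM with 95% bounds, per the file headers. STAR and Cufflinks are the tools listed in the submitters' processing notes for the authors' FPKM. Versions, options, read length and strand setting: not given in the sources used here. Although mm9 is the build listed, 22890 of 23028 symbols with 1 locus (99.4%) overlapped the GRCm38 gene of that name in GENCODE M21, and coordinates are therefore called GRCm38, from the tables with starts counted from 1. Groups and mouse numbers came from the sample titles. Entries with a failed estimate (2) were left out; 0 library pairs were identical.

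Genes with at least 1 FPKM in 3 libraries were fitted as log2(FPKM + 1) with limma 3.58.1 (R 4.3.3), 1 model for all 12 libraries with group as the term and a variance trend, Benjamini-Hochberg adjusted over 11019 genes at 0.05. Intervals of differences are 95%. The fit was tested on simulated data. Implied fragments, the square of FPKM over its standard error as the upper bound gives it, cover counting error only; 1 library is 1 mouse, so SDs are over mice.

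All 10 members were named; of other lists, up to 4 passing genes with the smallest p at day 3 (up to 2 otherwise), and the 3 most similar genes of each member that passed the F test. The members and lists were chosen with earlier results of these data known. Alternatives were pseudocounts of 0.1 and 0.5, no filter or one at 5 FPKM, median-of-ratios and quantile scaling, array and precision weights, no trend, fits of 2 groups, a block on mouse number and leaving out each library.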

Additional observations from a re-analysis of the deposited data

Results flagged for a closer look

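In 40 groups of 4 or 5 values (each gene and each share), 4 values from 2 mice lay far from the rest of their group. The threshold is one that chance passes in about 1 in 20 groups, and a gene and its share are not independent. In vehicle mouse 2 Cdkn2a reached 24.4 FPKM, where the remaining 4 of its group had 7.49 to 11.6, and it made up 18.9% of its summed INK4 FPKM. Relapse mouse 4 had 1.58 FPKM of Ccnd2, against 0.961 to 1.01 in the other relapse mice, and its Ccnd3 share of the D cyclins was 98.0%.

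The change from vehicle differed between day 3 and day 10 for 2 genes by the direct test of relapse against iCT in the limma fit. The log2 difference was -1.47 for Ccnd2 (adjusted p = 0.00698) and -0.59 for Ccnd3 (adjusted p = 0.019), with all 4 relapse mice below all 3 iCT mice for both.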

How the results depend on the processing

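Of 321 member differences under other settings, 298 kept their direction and side of the threshold, as did 331 of 360 with a library left out. Ccnd2 kept both calls throughout, and Cdkn1b lost its day 3 call only under the block (adjusted p = 0.0895). The block also ended the day 3 calls of Ccnd1 (0.0801) and Ccnd3 (0.115) and the relapse against iCT call of Ccnd3 (0.0728). Depth limits Ccnd1, Ccnd2, Cdkn1b, Cdkn1c and Cdkn2a in iCT mouse 1, with 1.67 to 7 implied fragments. The cause of the differences below was not tested.

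Genes called were, for iCT against vehicle (1060 as reported), 457 with array weights, 351 in the fit of 2 groups and 197 with the block. For relapse against vehicle (0) they were 1 with no filter, 971 with array weights, 10 with precision weights and 612 in the fit of 2 groups. For relapse against iCT (1071) they were 603, 252 and 372 with array weights, 2 groups and the block. By the F test (1033) they were 592 with no filter and 216 with the block. Members called in iCT against vehicle (4) were 2 with a filter at 5 FPKM, with array weights and in the fit of 2 groups, and 1 with the block. In relapse against iCT (2) 1 was called with the filter at 5 FPKM, the 2 groups or the block, and by the F test (4) 2 with that filter and 1 with the block. Ccnd1, Ccnd2 and Cdkn1c could not be tested at 5 FPKM. The block used mouse numbers that pair nothing in the labels: same-numbered mice correlated at -0.09 to 0.10 and others at -0.12 to 0.15.

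Signs turned for differences that did not pass. In relapse against vehicle these were Ccnd2 (-0.007 with ratios, -0.083 with quantiles, -0.069 with array weights) and Cdk4 (-0.05 with ratios). In relapse against iCT they were Cdkn2a (-0.061 with ratios, -0.092 with quantiles) and Cdkn1c (-0.078 with quantiles). In iCT against vehicle they were Cdk6 (0.002), Cdkn1c (-0.037) and Cdkn2d (-0.135) with array weights and Cdkn1c (-0.028) with precision weights.

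With 1 library left out, genes called ranged from 569 to 2722, 0 to 5, 529 to 1855 and, by the F test, 439 to 2218; members called from 2 to 5 (day 3), 1 to 3 (relapse against iCT) and 2 to 4 (F test). Differences whose sign turned ranged, in iCT against vehicle, from -0.261 to 0.134 (Cdkn2a), -0.098 to 0.28 (Cdkn2d) and -0.325 to 0.039 (Cdk6). In relapse against vehicle they ranged from -0.065 to 0.113 (Ccnd2), -0.009 to 0.067 (Cdk4), -0.215 to 0.18 (Cdkn2a), -0.13 to 0.009 (Ccnd3) and -0.072 to 0.014 (Cdkn2c), and in relapse against iCT from -0.148 to 0.476 (Cdkn1c) and -0.049 to 0.149 (Cdkn2a).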
